A study of Rattus norvegicus with 12 samples.

Results

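Aldosterone-regulated sodium and potassium transport was described through 9 genes in the colonic epithelium of male Wistar rats: Fxyd4, Atp12a, Atp1b1, Scnn1a, Scnn1b, Scnn1g, Nr3c2, Hsd11b2 and Sgk1. The members are the gene spots whose array gene name is one of these symbols, 37 spots of 10 probes per array, and the symbols were selected on how their levels varied with Hoxb13 and Hoxb6 over these same arrays. They are 9 of the 21914 named genes on the array, and 8 of them were among the 10451 named genes bright enough to test. Scnn1g was the member left out of the tests. The rats weighed 180 to 200 g and were fed for 6 weeks on one of 2 diets, of high or of normal protein content, with 6 single-colour arrays for each. Strain, sex and tissue were the same in both groups, and neither age nor the composition of the diets is given in the sources used here. Nothing in the labels ties the replicates to separate rats, so p-values measure the spread between these samples, which may be technical.

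Aldosterone enters the cells of the surface epithelium and binds the mineralocorticoid receptor, which then acts in the nucleus on genes that absorb sodium and handle potassium. Sodium enters through the epithelial sodium channel ENaC on the luminal side and leaves through the sodium-potassium pump on the blood side, while a colonic proton-potassium pump takes potassium back from the lumen. In the colon this response is known mainly from the distal segment. Hoxb13 is a Hox gene of the most distal gut, and Hoxb6 is expressed further towards the mouth end, so their levels were used to order the arrays.

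The promoter windows of Fxyd4 and Atp12a are shown because these members moved together over the arrays. Of the 9 members, 5 matched RefSeq promoter windows in the GRCr8 assembly, 8 windows in all. Each window is 300 bases long and ends shortly after the start site, and the capitals mark a receptor half-site (AGAACA on either strand).
Fxyd4, chr4:152785996-152786295, minus strand: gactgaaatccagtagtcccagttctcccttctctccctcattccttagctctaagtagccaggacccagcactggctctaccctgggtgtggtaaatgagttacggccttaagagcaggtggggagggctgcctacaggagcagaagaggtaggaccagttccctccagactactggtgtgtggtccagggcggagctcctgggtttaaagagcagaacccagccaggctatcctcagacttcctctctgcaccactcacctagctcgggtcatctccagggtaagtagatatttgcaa
Atp12a, chr15:34558959-34559258, plus strand: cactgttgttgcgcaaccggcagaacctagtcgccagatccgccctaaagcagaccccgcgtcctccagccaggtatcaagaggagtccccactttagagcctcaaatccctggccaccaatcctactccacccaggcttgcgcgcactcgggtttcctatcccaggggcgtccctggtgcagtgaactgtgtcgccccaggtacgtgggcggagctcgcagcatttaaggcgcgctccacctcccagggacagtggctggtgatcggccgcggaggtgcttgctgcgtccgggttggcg
Atp12a, chr15:34559495-34559794, plus strand: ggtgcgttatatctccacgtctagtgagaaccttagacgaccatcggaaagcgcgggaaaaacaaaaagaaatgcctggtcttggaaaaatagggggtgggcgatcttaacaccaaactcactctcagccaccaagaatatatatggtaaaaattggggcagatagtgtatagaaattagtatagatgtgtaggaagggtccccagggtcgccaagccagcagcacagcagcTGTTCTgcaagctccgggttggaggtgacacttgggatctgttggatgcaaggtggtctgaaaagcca
The second Atp12a window holds the only match among the 8 windows, a half-site on the minus strand that begins 18 bases before the start site. Of all 33469 windows of this length, 20.7% hold the half-site. The full element, the half-site followed by any 3 bases and its reverse complement, contains the half-site on each strand. It is in 0.0149% of all windows and in none of the 8. The letters CAATAAA, searched on both strands as a Hoxb13 motif, are in 4.57% of all windows and in none of the 8. A match or its lack describes these letters in these windows and nothing more.

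Arrays fell into separate groups on both Hox genes. Levels here are normalized log2 intensities, and a step of 1 is a doubling of intensity. Hoxb13 was between 11.996 and 12.56 on 6 arrays, those of normal protein replicates 1 and 2 and of high protein replicates 1, 2, 5 and 6. On the other 6 arrays it was between 5.83 and 9.32, which left a gap of 2.68. Hoxb6 was between 10.82 and 10.95 on 3 of these other arrays, normal protein replicate 6 and high protein replicates 3 and 4, and between 6.51 and 7.49 elsewhere. The remaining 3 arrays, normal protein replicates 3, 4 and 5, were high on neither gene. The Hoxb13 spot was not flagged good on normal protein replicates 4 and 6 and high protein replicate 3, at 3, 15 and 19 intensity units over background. The Hoxb6 spot was not flagged good on normal protein replicates 2 and 3. The order among such arrays thus lies in the background. The groups on the Hox genes were formed from the data and are not groups of the study. Diet overlaps with them, since 4 of the 6 arrays of high Hoxb13 were high-protein arrays and the 3 arrays high on neither gene were all normal-protein arrays. The members were chosen for how they varied with these Hox genes, so their levels by Hox gene are a description without a test.

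As a check on all 12 arrays, 42.67% to 55.86% of gene spots were flagged good by the scanning software, and signal over background had a 75th percentile of 133 to 387 intensity units. Precision is limited by how many arrays there are. Slides held 4 arrays each, 2 of each diet. The labelled tissue was checked on marker lists, each taken as the mean level of its tested genes. The 11 colon epithelium markers spanned 11.56 to 12.19 on normal-protein arrays and 11.43 to 12.09 on high-protein arrays. Other cell types were also measured: 7 of 8 smooth muscle markers were tested and spanned 11.15 to 11.66 and 10.44 to 11.54 in the same order. The 5 of 8 immune markers that were tested spanned 7.39 to 7.82 and 7.07 to 7.70, while Cd3e, Cd79a and Cd79b were too dim to test. The 3 of 7 markers of enteric neurons and glia that were tested spanned 7.50 to 9.02 and 7.29 to 8.07, while Ret and Gfap were among those too dim to test. Between diets 0 markers were called. On high protein 5 of 5 immune, 7 of 7 smooth muscle, 3 of 3 neuron and glia and 9 of 11 epithelial markers had differences below 0. Of these the macrophage genes Csf1r (-0.38) and Itgam (-0.36) and the epithelial Cdx2 (-0.44) had an unadjusted p under 0.05, with adjusted p of 0.680, 0.699 and 0.726 (limma). Over all tested genes the median difference was 0.0054, and 2.98% were lower on high protein at an unadjusted limma p under 0.05. In bulk tissue, fewer cells of a type and less RNA per cell cannot be told apart.

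Fxyd4 encodes CHIF, a small corticosteroid-induced subunit that tunes the affinity of the sodium-potassium pump. On normal protein its level was lowest at 5.95, at a median of 7.43 and highest at 12.33. On high protein it was lowest at 6.1025, at a median of 12.03 and highest at 13.73. The diets overlapped, and both held arrays at either end of the scale. Ordered by Hoxb13 the picture was sharper: the 6 arrays of high Hoxb13 were at 11.51 to 13.73 and the other 6 at 5.95 to 8.83. On normal protein replicates 3, 4 and 6 and high protein replicate 3 the Fxyd4 spot was not flagged good, and its signal over background there was 6, 10, 6 and 18 intensity units. The brightest spot, that of high protein replicate 5, had 14767 units. The order on Fxyd4 was not simply that on Hoxb13, because normal protein replicate 3 had more Hoxb13 (8.26) than high protein replicate 4 (7.49) but less Fxyd4 (6.03 against 7.31). Fxyd4 had a range of 7.78 over the 12 arrays, beside a median range of 0.68 over all tested genes, but its low end is not above background.

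Atp12a encodes the catalytic subunit of the colonic proton-potassium pump. On normal protein its lowest level was 5.83, its median 7.02 and its highest 11.17. High-protein arrays had a lowest level of 6.27, a median of 11.49 and a highest level of 12.78. The diets again overlapped. The 6 arrays of high Hoxb13 were at 9.48 to 12.78, and the other 6 at 5.83 to 8.03. Its probe lies in 10 spots on each array, and the SD over these spots had a median of 0.18 on normal-protein and 0.15 on high-protein arrays, which covers the error of spots on 1 array only. The arrays ranged by 6.95, with a low end not above background. On normal protein replicate 4 the mean signal over background was 3.1 units, with 0 of 10 spots flagged good, against 9908.8 units on high protein replicate 6 with 10 of 10.

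Atp1b1, the beta subunit that carries the sodium-potassium pump to the membrane, varied far less. On normal protein it was lowest at 11.996, at a median of 12.99 and highest at 13.11. On high protein it was lowest at 12.09, at a median of 12.98 and highest at 13.55. The 3 arrays of high Hoxb6 were its lowest, at 11.996, 12.09 and 12.72, and did not overlap with the other 9, which were at 12.90 to 13.55. The spot on high protein replicate 6 was not flagged good, although its signal over background was 11753 units. No spot of any member was saturated.

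**Figure D1:**
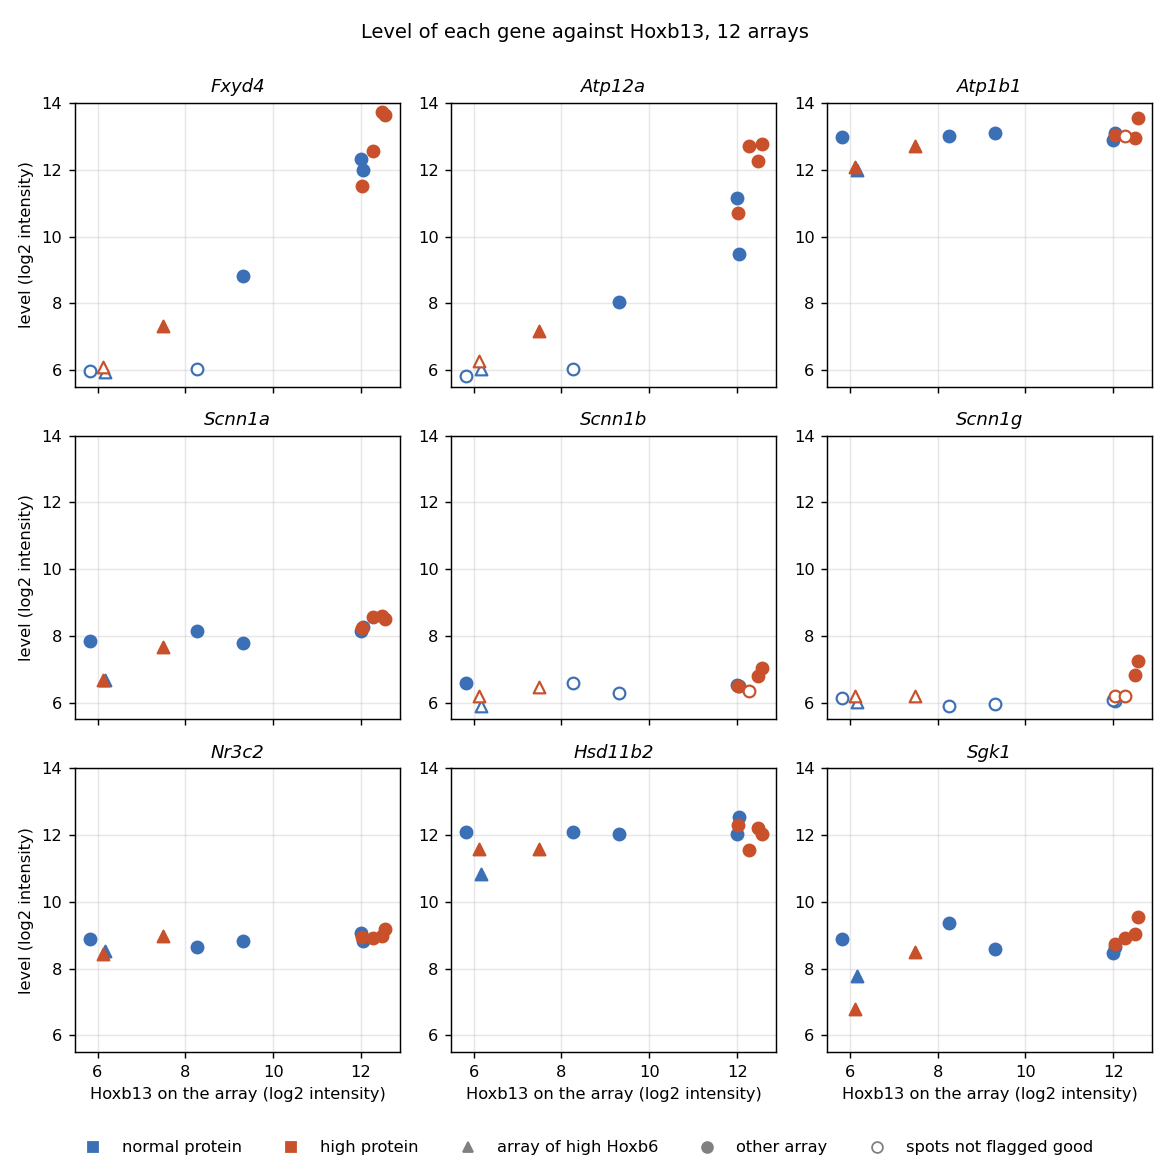
Level of each of the 9 genes (log2 intensity) against the Hoxb13 level of the same array (log2 intensity), 1 point per array, with colour for diet, triangles for the 3 arrays of high Hoxb6 and open symbols for spots not flagged good. Fxyd4 and Atp12a are at 9.48 or more on the 6 arrays of high Hoxb13 and at 8.83 or less elsewhere, while Scnn1a is higher there by a small margin, Scnn1g stands out on 2 arrays only, and Scnn1a and Atp1b1 are lowest on the triangles.

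Scnn1a, Scnn1b and Scnn1g encode the alpha, beta and gamma subunits of ENaC. Scnn1a spanned 6.68 to 8.27 on normal protein, with a median of 7.99, and 6.69 to 8.6047 on high protein, with a median of 8.37. The 2 lowest arrays were normal protein replicate 6 (6.68) and high protein replicate 3 (6.69), both of high Hoxb6, and the third such array was at 7.66. All 3 lay below the other 9 arrays. The 6 arrays of high Hoxb13 were at 8.15 to 8.6047, just above the 7.80 to 8.14 of the 3 arrays high on neither gene. Scnn1a was flagged good on all 12 arrays, and its 10 spots per array had a median SD of 0.14 on normal protein and 0.16 on high protein.

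The other ENaC subunits were dim. Scnn1b was at 5.90 to 6.60 on normal protein, with a median of 6.52, and at 6.21 to 7.03 on high protein, with a median of 6.48. It was flagged good on 3 arrays of each diet, the least that the test allowed, and its highest signal over background was 68 units. Its 2 highest levels, 7.03 and 6.80, were on high protein replicates 2 and 5.

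Scnn1g was flagged good on those same 2 arrays only, at 7.26 on high protein replicate 2 and 6.83 on replicate 5. Its other high-protein arrays were at 6.19 to 6.21 and its normal-protein arrays at 5.90 to 6.15, all not well above background. The high-protein arrays thus lay above every normal-protein array, as 0.287% of the tested genes did, but by a margin between 6.15 and 6.19 that lies in the background. The measured means were 6.48 for high and 6.03 for normal protein, and no fold is given because 4 of the 6 high-protein arrays were in the background too. Without the filter on dim probes the difference was 0.46 ± 0.17 (SE), with an adjusted p of 0.837 (limma). The diets overlapped when arrays were scaled to the 75th percentile or to the median, and in the deposited value table.

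Nr3c2, the mineralocorticoid receptor, varied the least of the tested members, with a range of 0.77 beside a median range of 0.68 over all tested genes. Its brighter probe was at 8.52 to 9.07 on normal protein, with a median of 8.82, and at 8.42 to 9.19 on high protein, with a median of 8.96. Its lowest arrays were high protein replicate 3 and normal protein replicate 6, both of high Hoxb6. A second Nr3c2 probe was at 6.08 to 6.52 and was flagged good only on high protein replicate 6, so it was not tested.

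Hsd11b2 inactivates glucocorticoids and so keeps the receptor free for aldosterone. It was at 10.84 to 12.53 on normal protein, with a median of 12.06, and at 11.54 to 12.30 on high protein, with a median of 11.81. Normal protein replicate 6 was its lowest array, and the other 2 arrays of high Hoxb6 were at 11.57 and 11.58. High protein replicate 6, an array of high Hoxb13, was as low at 11.54, so these groups overlapped.

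Sgk1, an aldosterone-induced kinase that keeps ENaC at the membrane, was at 7.79 to 9.38 on normal protein, with a median of 8.61, and at 6.78 to 9.54 on high protein, with a median of 8.82. The 2 lowest levels were those of high protein replicate 3 (6.78) and normal protein replicate 6 (7.79). The third array of high Hoxb6 was at 8.503, just above normal protein replicate 2 at 8.46.

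Between the diets, none of the 8 tested members passed the limma test at an adjusted p of 0.05, where 0% of the 10451 genes were called and the smallest adjusted p was 0.680. Over all genes 6.64% had an unadjusted p under 0.05 (3.66% higher and 2.98% lower on high protein), which none of the 8 had. Differences are given as high minus normal protein on the log2 scale. The mean of Fxyd4 was 10.81 ± 3.30 (SD, n = 6) for high and 8.52 ± 3.03 (SD, n = 6) for normal protein. Its difference was 2.29 ± 1.61 (SE), with a 95% interval of -1.19 to 5.77 (limma, adjusted p = 0.768). The mean of Atp12a was 10.32 ± 2.90 (SD, n = 6) for high and 7.76 ± 2.21 (SD, n = 6) for normal protein. It differed by 2.56 ± 1.31 (SE), with an interval of -0.27 to 5.39 (limma, adjusted p = 0.726). Both differences were within the spread of the arrays. The interval of Fxyd4 allows a sizeable fall on high protein as well as a large rise. That of Atp12a reaches from a small fall to a large rise.

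The other members had narrower intervals. The difference was 0.23 (95% interval -0.51 to 0.98) for Scnn1a and 0.16 (-0.17 to 0.49) for Scnn1b. For the receptor Nr3c2 it was 0.11 (-0.16 to 0.38), and for Hsd11b2 it was -0.06 (-0.59 to 0.47). Sgk1 differed by -0.04 (-0.88 to 0.81) and Atp1b1 by 0.05 (-0.46 to 0.55). For Nr3c2 and Scnn1b, on values that include the offset of the background correction, the intervals stay within 0.5 either way, while that of Sgk1 allows more. Of the 8 members, 6 had a difference above 0 and the median was 0.13, beside a median of 0.0054 over all tested genes.

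**Figure D2:**
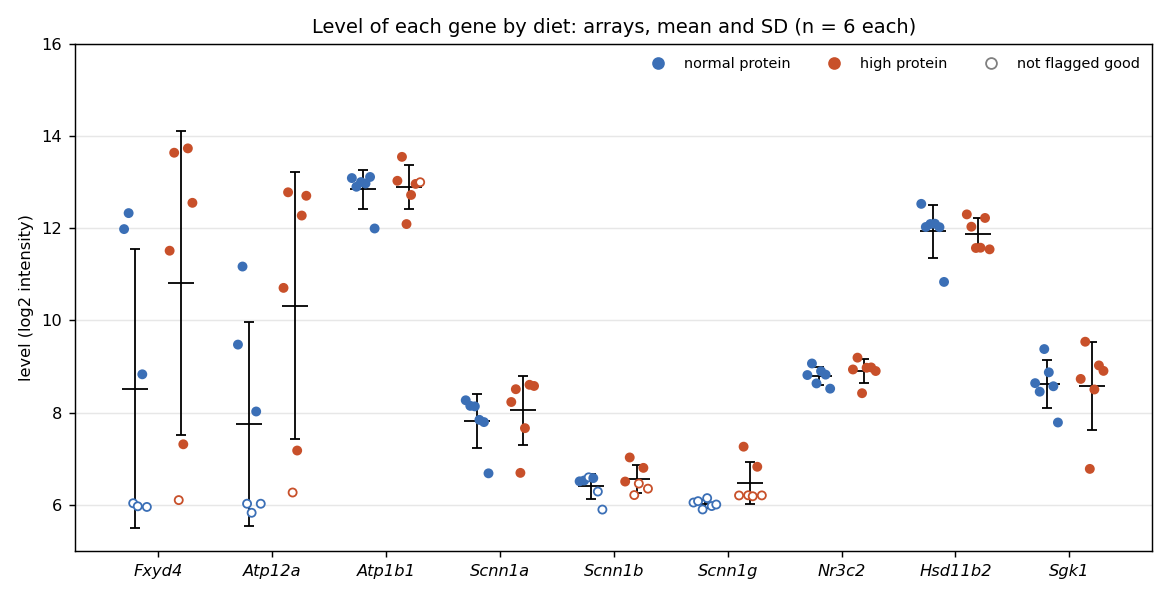
Level of each gene (log2 intensity) on the 6 arrays of each diet, with the mean and SD in black and open symbols for spots not flagged good. Fxyd4 and Atp12a spread from below 7 to above 11 within each diet, and the diets overlap for every gene but the dim Scnn1g, on which they overlap too with 75th percentile or median scaling.

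With the Hoxb13 and Hoxb6 levels of the arrays as terms beside diet, the difference of Fxyd4 was 0.38 ± 0.54 (SE) and that of Atp12a was 1.25 ± 0.56 (SE), with adjusted p of 0.911 and 0.752 (limma), and 0% of all genes were called. The other 6 members then had differences from 0.08 (Hsd11b2) to 0.32 (Scnn1a). Among the 6 arrays of high Hoxb13 the diets overlapped on Fxyd4, at 11.98 and 12.33 on normal protein and 11.51 to 13.73 on high protein. Atp12a was at 9.48 and 11.17 on normal protein there and at 10.71 to 12.78 on high protein, again overlapping. The differences without the 3 arrays of high Hoxb6 were larger, 3.83 ± 1.33 (SE) for Fxyd4 and 4.01 ± 1.01 (SE) for Atp12a (limma, adjusted p = 0.277 and 0.183). The 9 arrays of that comparison are 2 normal-protein and 4 high-protein arrays of high Hoxb13 and the 3 normal-protein arrays high on neither gene, so diet goes partly with Hoxb13 there.

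Within slides the differences of Fxyd4 were 3.57, 2.54 and 0.77 on slides 1, 2 and 3, and those of Atp12a were 3.99, 2.92 and 0.77. On slide 3 each diet had 1 array of high Hoxb13, whereas on slide 1 both high-protein arrays and 1 normal-protein array were high, and on slide 2 a single high-protein array was. The other 6 members were all below 0 on slide 3, from -0.76 for Sgk1 to -0.05 for Scnn1b. On slide 2 all 8 were above 0. With slide as a block 0 genes were called by limma.

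**Figure D3:**
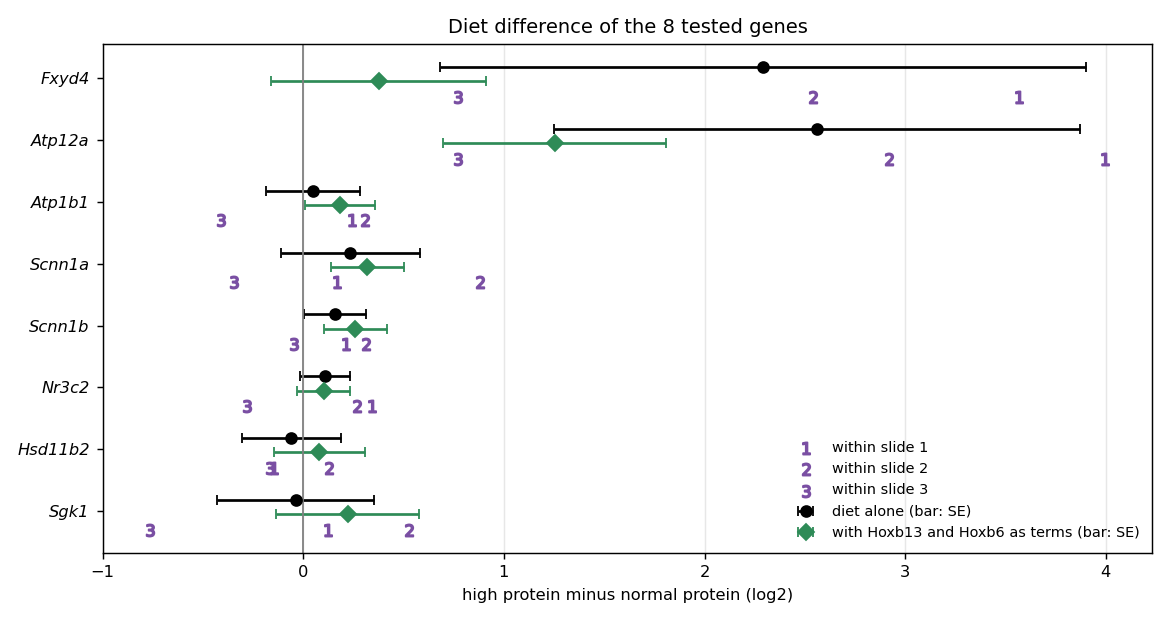
High minus normal protein (log2) for the 8 tested genes, from the fit on diet alone and with Hoxb13 and Hoxb6 as terms (bars are SE), and within slides 1 to 3 (digits). Fxyd4 moves from 2.29 to 0.38 and Atp12a from 2.56 to 1.25 with the Hox terms, and the within-slide values of most other genes lie on both sides of 0.

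The slope on Hoxb13, with diet as a term, gives the log2 change in level per log2 unit of Hoxb13. It was 1.09 ± 0.08 (SE) for Fxyd4 and 0.87 ± 0.08 (SE) for Atp12a. Both genes were flagged good on the 6 arrays of high Hoxb13 and on 2 of the other 6, so they passed the filter on dim probes mainly through the former. Scnn1b passed likewise, flagged good on 5 of the 6 arrays of high Hoxb13 and on 1 other. Hoxb13 itself was not flagged good on normal protein replicates 4 and 6 and high protein replicate 3, so the slopes rest in part on background values. The ENaC subunit Scnn1a had a slope of 0.20 ± 0.04 (SE), Sgk1 0.16, Atp1b1 0.11, Hsd11b2 0.10, and Scnn1b and Nr3c2 0.05 each. The median slope of the 8 was 0.13, beside 0.00098 over all tested genes, of which 51.5% had a slope above 0. Fxyd4, Atp12a and Scnn1a were higher without overlap on the 6 arrays of high Hoxb13, as 1.88% of the tested genes were. The rule that chose the members used these levels, so nothing is read from that count.

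On Hoxb6 the slopes ran the other way. They were -1.24 for Fxyd4, -1.05 for Atp12a, -0.34 for Scnn1a, -0.32 for Sgk1, -0.22 for Atp1b1, -0.20 for Hsd11b2, -0.11 for Scnn1b and -0.08 for Nr3c2. Over all tested genes the median was -0.0032. Scnn1a and Atp1b1 were lower without overlap on the 3 arrays of high Hoxb6, as 2.71% of the tested genes were.

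Without these 3 arrays the slope on Hoxb13 was 1.13 ± 0.15 (SE) for Fxyd4 and 0.81 ± 0.14 (SE) for Atp12a. For the other members it was 0.06 ± 0.03 (SE) for Scnn1a, 0.03 for Hsd11b2, 0.02 for Nr3c2 and 0.0061 for Atp1b1. Scnn1b and Sgk1 had slopes of -0.0038 and -0.07. These slopes are again a description, since the members were chosen on them.

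**Figure D4:**
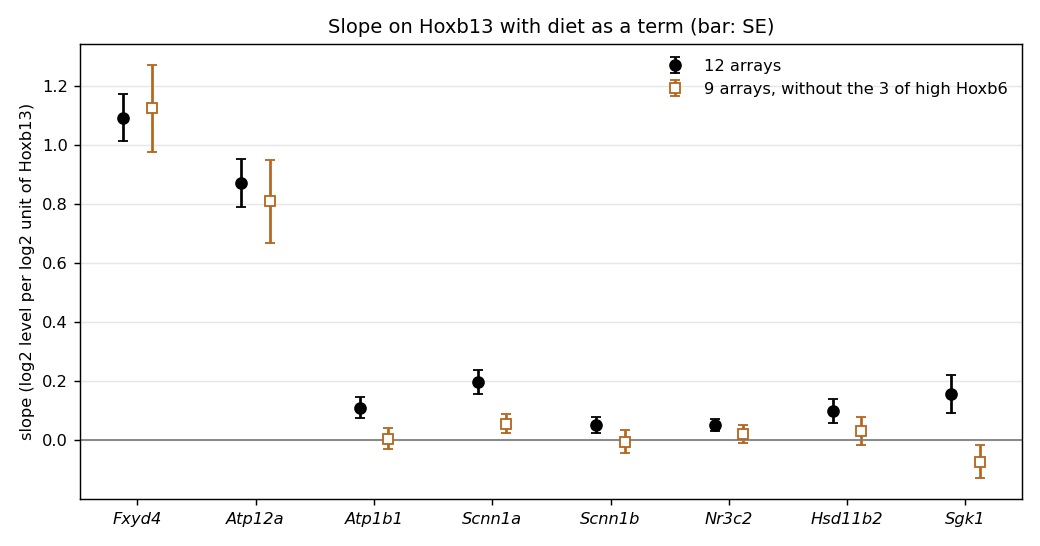
Slope of each tested gene on the Hoxb13 level of the array (log2 level per log2 unit of Hoxb13, bars are SE), over 12 arrays and over the 9 without high Hoxb6. Fxyd4 and Atp12a stay at 0.81 or more in both, whereas the other 6 genes lie between -0.07 and 0.06 on the 9 arrays.

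Among the members themselves, levels over the 12 arrays were correlated above 0 in all 28 pairs of the 8 genes, with a median Pearson r of 0.72. These points share their arrays, and the arrays fall into groups on the Hox genes, so the values only describe. Fxyd4 and Atp12a had r = 0.98 over 12 arrays, 0.75 within the 6 arrays of high Hoxb13 and 0.99 within the other 6. Of these other 6, neither gene was flagged good on normal protein replicates 3, 4 and 6 and high protein replicate 3. The 0.99 thus rests on normal protein replicate 5 and high protein replicate 4 beside arrays in the background. Scnn1a and Atp1b1 had r = 0.89 over 12 arrays and 0.97 within the 6 arrays without high Hoxb13, which include the 3 of high Hoxb6, but 0.28 within the 6 of high Hoxb13. Scnn1a and Sgk1 had r = 0.86 over 12 arrays and 0.42 on the 9 arrays without high Hoxb6. Over those 9 arrays the median of the 28 pairs was 0.33. Within the 6 arrays of high Hoxb13, Hsd11b2 had r = -0.76 with Atp12a and -0.25 with Fxyd4.

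The genes most like each member over the 12 arrays were found by Pearson r, as a description. For Fxyd4 they were Sftpd, a surfactant lectin, at 0.98, Hyi at 0.97 and Hoxb13 itself at 0.97. For Atp12a they were Msh5, Hyi and Sftpd, at 0.97 each. Sftpd ran from 7.47 to 13.94. Scnn1a was most like Pllp (0.98), Mptx1 (0.97) and Fam83e (0.97), of which Mptx1, a mucosal pentraxin, ran from 6.16 to 14.42. Hsd11b2 was most like the posterior Hox gene Hoxa13 (0.89), followed by Trit1 and Sdc4. Sgk1 was most like Tor1aip2, Wwp2 and Klf4, a factor of differentiated surface cells, at 0.94 each. Atp1b1 was most like Rlim, Stk35 and Bicdl2 (0.92 to 0.93), Scnn1b like Golga4, Synj2 and Dpp3 (0.91 to 0.94), and Nr3c2 like Nup205, Ppip5k1 and Cux1 (0.90 to 0.91).

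Other genes of the pathway were taken from lists, beside the members. Of 29 aldosterone-induced and ENaC-regulating genes 23 were tested, and 0 were called between diets, with 0 at an unadjusted limma p under 0.05. Those of smallest p were Nedd4, a ubiquitin ligase, at -0.30, Edn1, the endothelin precursor, at 0.22 and Tsc22d3, the steroid-induced GILZ, at -0.39. On Hoxb13 1 of the 22 other than Sgk1 was called higher, where 2.3% of all genes were: Tmprss2, a surface serine protease, rose with Hoxb13 by 0.14 ± 0.03 (SE) per unit (limma, adjusted p = 0.043). Tmprss2 was at 10.37, 10.69 and 11.21 on the 3 arrays of high Hoxb6 and at 11.16 to 12.21 elsewhere. Without these 3 arrays its slope was 0.03 ± 0.04 (SE), with an adjusted p of 0.998 (limma). Tmprss2 was called on Hoxb13 in 8 of the 23 fits run, and its adjusted p was 0.248 without high protein replicate 3. On Hoxb6 3 of the 22 were called lower, where 2.79% of all genes were: Tmprss2 at -0.26, Tsc22d3 at -0.21 and Usp2, a deubiquitinase, at -0.13 per unit (limma, adjusted p = 0.0023, 0.034 and 0.025). Usp2, and Kcnk5 among the potassium channels, were named after their values were seen.

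Pump subunits beside Fxyd4, Atp12a and Atp1b1 went in both directions. Of 18 pump subunits 13 were tested, 0 were called between diets, and 2 had lower values on high protein at an unadjusted p under 0.05. These were Fxyd3, with means of 10.90 ± 0.13 (SD, n = 6) for high and 11.24 ± 0.29 (SD, n = 6) for normal protein, and Atp1b2, at a difference of -0.30. Their adjusted p was 0.699 and 0.726 (limma). None of the 10 non-members was called on Hoxb13, where 4% of all genes were. On Hoxb6 Fxyd6 fell by 0.26 per unit (limma, adjusted p = 0.021), where 2.79% of all genes were called lower. Among all genes 1.96% were called higher with Hoxb6. Fxyd1 rose with it, by 0.21 per unit (limma, adjusted p = 0.047). Fxyd1 was at 9.80 on normal protein replicate 6 and at 8.20 to 9.28 on the other arrays. The glial gene S100b was likewise at 11.72 on normal protein replicate 6 and at 6.78 to 8.15 on the others, and its part in these values was not tested. Without that array the slope of Fxyd1 was 0.12, with an adjusted p of 0.395 (limma). The stomach pump subunits Atp4a and Atp4b were too dim to test.

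Potassium channels gave 7 tested genes of 18, none of them called between diets and none at an unadjusted p under 0.05 there. None was called on Hoxb13, where 4% of all genes were. On Hoxb6 2 of the 7 were called lower, where 2.79% of all genes were. These were Kcnq1 and Kcnk5, which fell by 0.22 and 0.20 per unit (limma, adjusted p = 0.034 and 0.026). Kcnma1, the large potassium channel, had a diet difference of 0.04, and Kcne3, which partners Kcnq1, one of -0.24. Kcnma1 was dim, at 6.12 to 6.78, where the offset of the background correction shrinks differences. Kcnj1 and the Kcnmb subunits 1 to 4 were too dim to test.

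Sodium exchangers and cotransporters gave 13 tested genes of 15, and 0 were called between diets. Slc4a7, a sodium bicarbonate carrier, had means of 7.95 ± 0.56 (SD, n = 6) for high and 7.36 ± 0.39 (SD, n = 6) for normal protein, an unadjusted p under 0.05 and an adjusted p of 0.726 (limma). Slc5a8, which carries butyrate with sodium, rose with Hoxb13 by 0.16 ± 0.03 (SE) per unit (limma, adjusted p = 0.021) and fell with Hoxb6 by 0.25 (limma, adjusted p = 0.021). It was the 1 gene of 13 called on each, where 2.3% of all genes were called higher on Hoxb13 and 2.79% lower on Hoxb6. Without the 3 arrays of high Hoxb6 its Hoxb13 slope was 0.11 ± 0.05 (SE), with an adjusted p of 0.786 (limma). Over all but high protein replicate 3 the slope was 0.15 with an adjusted p of 0.107 (limma), and over all but normal protein replicate 2 it was 0.14 with an adjusted p of 0.056 (limma), so the slope stayed near its value over all arrays. Slc12a2, the cotransporter of chloride-secreting cells, had a diet difference of 0.29 and a Hoxb13 slope of -0.006. Tmprss2 was called on Hoxb6 in all 22 fits run, whereas the other genes of the pathway lists called on Hoxb6 missed the threshold with single arrays left out. Without normal protein replicate 6 the adjusted p (limma) of Tsc22d3, Usp2, Fxyd6, Fxyd1, Kcnq1, Kcnk5 and Slc5a8 lay between 0.057 and 0.395. Without high protein replicate 3 Fxyd6 and Tmprss2 passed and the others lay between 0.053 and 0.151. The slopes moved less than the calls for some of them. Without normal protein replicate 6 the slope of Usp2 was -0.12 and that of Tsc22d3 -0.27, while that of Kcnk5 was -0.12. Without high protein replicate 3 the slopes of Usp2, Kcnk5 and Kcnq1 were -0.14, -0.21 and -0.24. With slide as a block the adjusted p of the 7 named genes other than Tmprss2 lay between 0.055 and 0.140.

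Glucocorticoids share the receptor element with aldosterone, so their targets were listed as well. Of 11 such genes 7 were tested and 0 were called between diets. At an unadjusted p under 0.05, 2 had higher values on high protein. Fkbp5 lowers the hormone affinity of steroid receptors, and its difference of 0.61 ± 0.13 (SE) had an adjusted p of 0.680 (limma). It spanned 7.73 to 8.44 on high-protein and 7.33 to 7.88 on normal-protein arrays, which overlap. The metallothionein Mt2A spanned 11.24 to 13.37 on high-protein arrays, while 3 normal-protein arrays were at 8.39 to 8.41 and the other 3 at 10.43 to 12.57. Its difference was 2.24 ± 0.78 (SE), with an adjusted p of 0.699 (limma). Their Hoxb13 slopes were -0.03 ± 0.02 (SE) and -0.0089 ± 0.16 (SE), and neither was called. Tsc22d3, also a target of glucocorticoids, is given above. Nr3c1, the glucocorticoid receptor, differed by -0.05 ± 0.08 (SE), and Hsd11b1, which reactivates glucocorticoids, differed by -0.0058. Nr3c1 was dim, at 6.60 to 7.05, where the offset of the background correction shrinks differences. The receptor chaperones Fkbp4, Hsp90ab1 and Hsp90aa1 differed by -0.17, -0.05 and 0.04. Of 9 tested immediate early genes, 0 were called between diets or on Hoxb13, where 0% and 4% of all genes were.

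**Figure D5:**
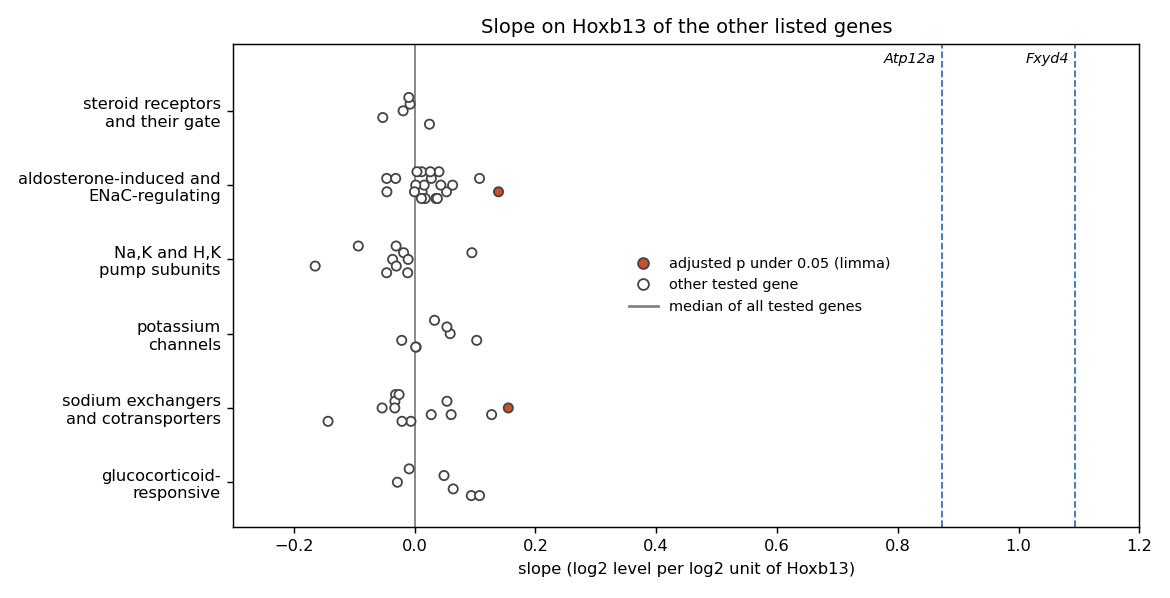
Slope on Hoxb13 (log2 level per log2 unit of Hoxb13) of each tested gene of the pathway lists other than the 9 members, 1 point per gene, with filled points for an adjusted limma p under 0.05. The 2 filled points are Tmprss2 at 0.14 and Slc5a8 at 0.16, and every point lies far below the dashed lines of Atp12a (0.87) and Fxyd4 (1.09).

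The marker lists beside the Hox groups were as follows. Colon epithelium markers were at 11.61 to 11.96 on the 6 arrays of high Hoxb13, at 11.43 to 12.09 on the 3 of high Hoxb6 and at 12.05 to 12.19 on the other 3. Smooth muscle markers were at 11.11 to 11.54, 10.44 to 11.15 and 11.35 to 11.66 in the same order. Markers of neurons and glia were at 7.31 to 7.55, 7.29 to 9.02 and 7.56 to 7.90. Immune markers were at 7.07 to 7.82, 7.39 to 7.62 and 7.67 to 7.75. Of the epithelial markers, 0 of 11 were called on Hoxb13 or Hoxb6, with slopes on Hoxb13 between -0.07 (Cdx2) and 0.07 (Krt8). None of the tested immune, neuron or glia markers was called either. Over all genes 4% were called on Hoxb13, and 1.96% were called higher and 2.79% lower on Hoxb6. Little can thus be read from such counts of 0 in short lists. Of the 7 smooth muscle markers, Des, the desmin of muscle fibres, fell with Hoxb6 by 0.26 per unit (limma, adjusted p = 0.034), a call made in 11 of the 22 fits run, with slopes from -0.30 to -0.19. Des was at 10.99, 11.55 and 11.88 on the 3 arrays of high Hoxb6 and at 11.95 to 12.94 on the others, so it was lowest on the same arrays as Scnn1a and Atp1b1. The arrays of high Hoxb6, on which Scnn1a and Atp1b1 were lowest, included the lowest values of the epithelial and smooth muscle lists, but on different arrays. The epithelial low of 11.43 was on high protein replicate 3. The smooth muscle low of 10.44 was on high protein replicate 4, where the epithelial list was at 12.09, above the 6 arrays of high Hoxb13. The part of cell composition in the members' levels was not tested.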

How the data were processed

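Labelled RNA of 12 samples was hybridised to single-colour Agilent arrays, scanned at 532 nm and measured with GenePix Pro 6.1.0.4, per the file headers. The deposited files hold intensity on a linear scale, not normalized, with spot flags (100 for good, 0 unflagged, -50 not found) and the percent of saturated pixels. The deposited value table is in log2 units, and the submitters' processing notes name RMA without version or role. Its IDs were displaced by 1 row. Moved back, they gave a median r of 0.936 with the scanner values and slopes of 0.985 to 1.04. Its scale and direction are thus known and its centring is not, with column medians of 4.36 to 4.45, and it served as an alternative only.

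Here the mean spot intensity was corrected by normexp with the median local background (offset 50), which shrinks the fold of dim genes, and quantile normalized on the log2 scale. Controls were dropped after the background correction and before the quantile step, and a probe's spots were averaged. Tests covered probes with a share of 0.5 or more of their spots flagged good on 6 or more of the 12 arrays, and the brightest tested probe stood for its gene. RefSeq accessions in a GRCr8 gene table named 18355 of 30367 probes, and others kept the array's name. Of 13204 tested probes, 11737 had a name.

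The diet comparison used limma 3.58.1 (R 4.3.3) over all 10451 genes, with Benjamini-Hochberg adjustment at 0.05. The same package gave the slopes on Hoxb13 and Hoxb6 with diet as a term, and the fits were tested on simulated data. Arrays were grouped on Hoxb13 and Hoxb6 at the widest gap in their levels. Alternatives were other scaling, offset, background, filter, probe rule, value table, slide block, single slides, replicate block, Hox terms, array weights and single arrays left out. Leaving out the 3 arrays of high Hoxb6, and testing Scnn1g without the filter, were chosen after seeing the data. The members and lists were chosen with earlier results of these data known. Of each list, up to 3 genes of smallest p for diet and 3 for the Hoxb13 slope could be named, and for each member the 3 genes of highest Pearson r. The list genes Sgk3, Klhl3 and Synpo2 had no named probe, and some list genes are counted but their values are not reported here.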

Additional observations from a re-analysis of the deposited data

Results flagged for a closer look

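Normal protein replicate 6 lay apart from the other 5 normal-protein arrays on 3 members. There Scnn1a was at 6.68, Hsd11b2 at 10.84 and Atp1b1 at 11.996, each the lowest of its diet by a gap above Dixon's 95% critical value for 6 samples. This is the only normal-protein array of high Hoxb6. Dixon's test was applied to 20 groups of 6 arrays, and chance flags about 1 in 20 groups of genes not chosen on these values. The members were chosen for how they varied with Hoxb13 and Hoxb6 on these arrays. That rate thus does not apply to them, and the flags only describe. The 3 values come from 1 array and are not independent.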

How the results depend on the processing

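No member passed between diets under any alternative, and their adjusted p (limma) lay between 0.183 and 0.9999. Genes called between diets were 0 throughout except for 1 within slide 3. Fxyd4 and Atp12a stayed above 0, from 0.38 to 3.83 and from 0.77 to 4.59, the last from the value table, where Scnn1b was at 0.91. Fxyd4 ran from 1.71 to 3.23 and Atp12a from 2.07 to 3.37 with single arrays left out. Small differences changed sign. With 75th percentile scaling Scnn1b was -0.0083 and Hsd11b2 0.0045, and with median scaling Hsd11b2 was 0.13 and Sgk1 0.12. Within slide 1 Sgk1 was 0.13, within slide 2 Hsd11b2 was 0.13 and Sgk1 0.53, and within slide 3 Scnn1a was -0.35, Scnn1b -0.047, Nr3c2 -0.28 and Atp1b1 -0.41. With the Hox terms Hsd11b2 was 0.081 and Sgk1 0.22, with array weights Sgk1 was 0.10, and without the 3 arrays of high Hoxb6 it was 0.27. Leaving out single arrays gave Hsd11b2 values of -0.28 (normal protein replicate 6) to 0.060 (normal protein replicate 1), Sgk1 values of -0.23 (high protein replicate 2) to 0.32 (high protein replicate 3), Atp1b1 values of -0.12 (normal protein replicate 6) to 0.21 (high protein replicate 3) and Scnn1a values of 0.0085 to 0.51 (the same arrays).

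Genes called on Hoxb13 were 418, but 60 in the value table, 207 with slide as a block and 12 without the 3 arrays of high Hoxb6, where Scnn1b had a slope of -0.0038 and Sgk1 of -0.072. Leaving out single arrays gave 168 (high protein replicate 3) to 536 (normal protein replicate 4), and they were 245, 255 and 277 without high protein replicates 4 and 2 and normal protein replicate 1. Genes called on Hoxb6 were 497, but 247 with median scaling and 88 with slide as a block. Single arrays left out gave 176 (without high protein replicate 3) to 767 (without high protein replicate 4), with 181, 261, 283 and 305 without normal protein replicate 6, high protein replicate 2, normal protein replicate 2 and high protein replicate 5. The cause was not tested in any of these. Tmprss2 was called on Hoxb13 in 8 of 23 fits and Slc5a8 in 18 of 22. The slopes of Fxyd4 and Atp12a on Hoxb13 stayed between 0.81 and 1.16 in every fit run.

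Replicate numbers shared by the diets were not taken to pair the arrays, since the labels do not say so and same-numbered arrays had deviations correlated from -0.11 to 0.40, with 3 of 6 pairs over 0.1. Whether some arrays are paired was not settled. In the fit with the replicate block 0 genes and 0 members were called, with Fxyd4 at 2.29 ± 0.92 (SE) and Atp12a at 2.56 ± 0.79 (SE), adjusted p 0.635 and 0.623 (limma). Atp12a was higher on high protein in 6 of 6 same-numbered pairs, and the other tested members in 2 to 5 of 6. For replicate 3 both Atp12a levels, 6.27 on high and 6.02 on normal protein, were in the background. Such counts were not made over all genes, so nothing is read from them. Of the high-protein arrays, 3 of 6 correlated best with their own number. Signal over background limits Scnn1g, Scnn1b and the low arrays of Fxyd4, Atp12a and Hoxb13, whose folds are shrunk by the offset.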
